A study of Mus musculus with 14 samples.

Results

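The 10 genes described here are components of the WNT pathway measured in granulosa cells (GCs), the somatic cells that surround the oocyte in the ovarian follicle. They were chosen by name and stand for the steps of the pathway: the ligand Wnt4, the receptors Fzd1 and Fzd4, the co-receptors Lrp5 and Lrp6, the secreted inhibitor Sfrp1, the ubiquitin ligase Znrf3, beta-catenin (Ctnnb1), and Axin2 and Lef1, which act in the pathway and are also induced by it. All 10 had a row in the count table, which held 55414 genes. RNA-seq was performed on GCs of antral follicles from female mice of 2 models of genetic obesity and from the lean littermates of each model. The db model, in which the long form of the leptin receptor is lacking (strain B6.BKS(D)-Lepr db/J), gave 4 libraries of db/db mice and 4 of their controls (CT db). The ob model, in which leptin is lacking (strain B6.Cg-Lep ob/J), gave 3 libraries of ob/ob mice and 3 of their controls (CT ob). The labels give the controls as wild type, while the names of the control columns in the table read as heterozygous, and this was not settled here. The mutation is in every cell of the animal, so an effect on GCs cannot be told apart from an effect of obesity. The model and the colony that it came from cannot be told apart either.

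WNT ligands bind Frizzled receptors together with LRP co-receptors, which stops the destruction complex of Axin, APC, GSK3 and casein kinase from marking beta-catenin for degradation. Beta-catenin then enters the nucleus and, with the DNA-binding proteins of the TCF and LEF family, switches on target genes, among them feedback inhibitors such as Axin2 and Znrf3. In the ovary, WNT4 is known for its part in the development of the female gonad and of antral follicles, and beta-catenin is known to take part in follicle growth and oestrogen synthesis in GCs.

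The libraries were made from about 50 cells each and held 2204686 to 8367593 counts on genes. The number taken here as the limit of detection, 3 counts, amounted to 0.359 to 1.36 CPM (counts scaled to a common library total) before TMM scaling. All other CPM used library totals scaled by TMM factors. Without molecular identifiers this limit covers counting error only, and as nothing in the labels says that libraries of a group came from separate animals, the tests measure the spread between libraries. The libraries are numbered in the order of the table's columns, which carry no replicate numbers of the labels. All 10 granulosa cell markers were detected in every group, with a summed level of 10889 to 15902 CPM in CT ob and of 17794 to 28218 CPM elsewhere. Of these 10 markers, 2 were lower in CT ob than in CT db by edgeR's quasi-likelihood test (adjusted p of 0.05 or less over all genes). The same test called 4.39% of all 12586 genes lower. Transcripts of 7 oocyte genes summed to 2.53 to 218 CPM in the libraries of the db model and to 58.4 to 974 CPM in those of the ob model. Markers of the ovarian surface epithelium summed to 41.3 CPM in library 1 of db/db and to at most 5.36 CPM in every other library. The 18S ribosomal RNA gene took 24.5% of the counts in library 3 of CT ob and between 1.10% and 12.8% in the others.

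Per kb of exon, Ctnnb1 had the highest mean level of the 10 genes and Lef1 the lowest (plot of levels per length). The mean over 14 libraries was 19.0 ± 3.92 CPM per kb for Ctnnb1 (SD), which lay above the next gene in 14 of 14 libraries. Znrf3 at 7.68 ± 1.40, Lrp6 at 7.62 ± 2.13 and Lrp5 at 6.43 ± 2.84 CPM per kb came next, close to each other and well below Ctnnb1. The order among these 3 was not settled: Znrf3 lay above Lrp6 in 8 of 14 libraries, and Lrp6 came before Znrf3 when the longest transcript was used as the length. Wnt4 came next at 2.005 ± 3.06 CPM per kb, with a spread larger than its mean, and lay above Fzd4 in 6 of 14 libraries. Fzd4 at 1.20 ± 0.693, Fzd1 at 0.852 ± 0.594 and Sfrp1 at 0.704 ± 0.636 CPM per kb also differed by less than their spread. Axin2 at 0.376 ± 0.437 CPM per kb exceeded Lef1, at 0.0698 ± 0.0935, in 14 of 14 libraries. Ctnnb1, Znrf3, Lrp6, Lrp5, Wnt4 and Fzd4 had more than 3 counts in all 14 libraries, Fzd1 in 12, Sfrp1 in 11, Axin2 in 7 and Lef1 in 4.

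**Figure D1:**
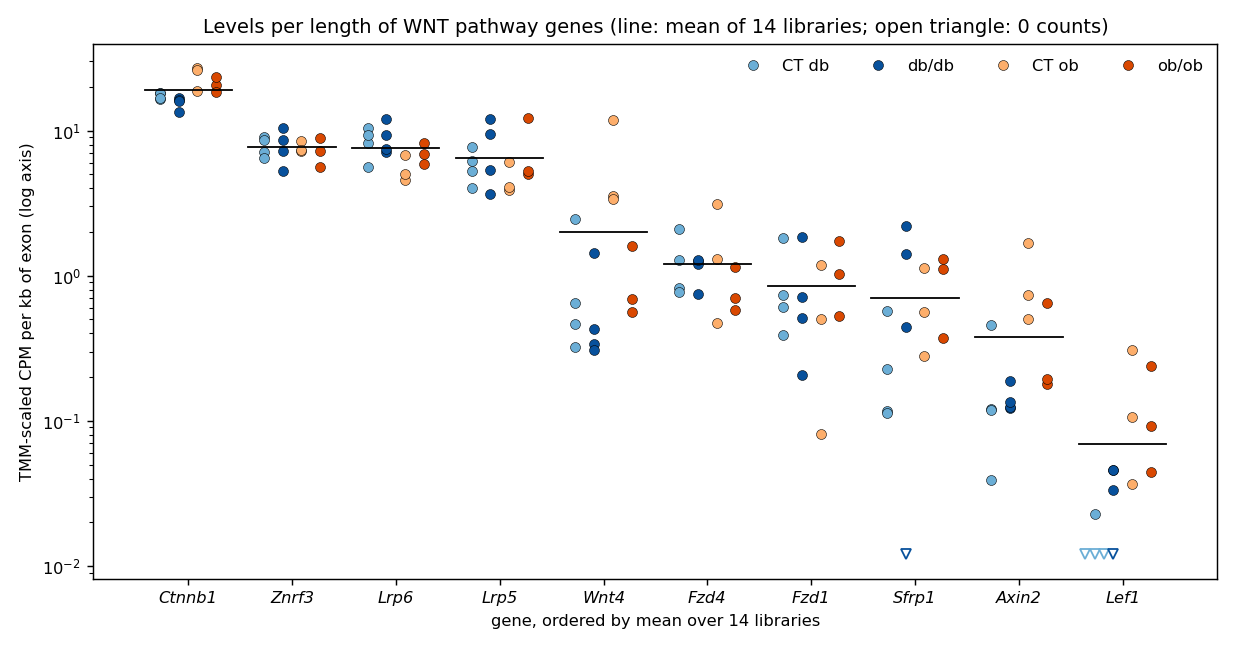
TMM-scaled CPM per kb of exon on a log axis for the 10 WNT pathway genes, 1 point per library coloured by group, with a line at the mean of 14 libraries and open triangles for libraries with 0 counts. Ctnnb1 stood at the top at 19.0 CPM per kb and Lef1 at the bottom at 0.0698, while the 3 points of CT ob for Wnt4 lay above those of the other groups.

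The ligand Wnt4 had the largest fold change of the members tested in the ob model and between the controls, but not between the mutants, and was not tested in the db model. It lies on chromosome 4 (GRCm39, chr4:137004373-137027037, plus strand) and no other annotated gene overlaps its exons. In CT ob its level was 17.8, 17.0 and 60.1 CPM in the 3 libraries. The ob/ob libraries had 8.12, 3.46 and 2.83 CPM. Those of the db model had 12.4, 2.34, 3.29 and 1.64 CPM (CT db) and 7.24, 1.72, 2.16 and 1.56 CPM (db/db). Every CT ob library thus lay above all 11 libraries of the other groups, and the other 3 groups overlapped with each other. How many of all genes have such a pattern was not counted. Taken by pairs, CT ob did not overlap with CT db for 21.2% of 12586 genes, and with ob/ob for 15.8% of 12425. The counts behind these values were 68 to 176 per library in CT ob and 4 to 47 elsewhere.

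Between the lean controls, Wnt4 was higher in CT ob than in CT db, with a log2 fold change of 2.69 ± 0.69 (SE; 6.43-fold; edgeR, adjusted p = 0.0352). Of the 9 members tested in this comparison, Wnt4 was the 1 that passed, while 6.63% of all 12586 genes did. The call was lost when single libraries were left out. Without library 3 of CT ob the log2 fold change was 1.82 (adjusted p = 0.168). Without library 2, 3 or 4 of CT db it stayed at 2.44, 2.52 and 2.40, with adjusted p of 0.105, 0.0734 and 0.0954. With library totals in place of TMM factors it was 2.57 (adjusted p = 0.0512). Library 3 of CT ob was also the one with 24.5% of its counts on the 18S gene, and with that gene left out of the fit the log2 fold change was 2.68 (adjusted p = 0.0359). The highest Wnt4 library was the one with the highest 18S share in db/db, CT db and CT ob, but not in ob/ob, and the part of RNA quality in the result was not tested further.

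In the ob model, Wnt4 was at 4.804 ± 2.89 CPM in the mutants against 31.6 ± 24.6 CPM in CT ob (SD, n = 3 each), without overlap (15.8% of all genes). The log2 fold change was -2.72 ± 0.63 (SE), with an unadjusted p of 0.00235 and an adjusted p of 0.539 by edgeR over 12425 genes, so that the gene did not pass. Without library 3 of CT ob the log2 fold change was -1.87 (adjusted p = 0.618). DESeq2 called it on the same counts (adjusted p = 0.00328). The study's own comparisons used DESeq2 on these libraries, so that call is not independent evidence. The exact permutation test of 3 against 3 libraries gave p = 0.1, the smallest that it can give. In the db model, Wnt4 was below the count filter, and its level of 3.17 ± 2.73 CPM in db/db overlapped that of 4.91 ± 5.02 CPM in CT db (SD, n = 4 each; exact permutation test, two-sided, p = 0.514). The difference between the ob and db effects was -2.08 ± 1.04 on the log2 scale (SE; edgeR, adjusted p = 0.623). As CT ob enters both the control and the ob comparison, the higher level there and the lower level in ob/ob are not separate observations.

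The 2 Frizzled receptors among the members were low in every group. Fzd1 (GRCm39, chr5:4803839-4808035, minus strand) ranged from 0.34 to 7.81 CPM over the libraries. Fzd4 (chr7:89053563-89062342, plus strand) ranged from 3.26 to 21.5 CPM, and its highest value, like that of Wnt4, was in library 3 of CT ob. The groups overlapped for both genes in each comparison. Fzd1 gave a log2 fold change of 0.85 ± 0.78 in the ob model and -0.55 ± 0.78 between controls, and Fzd4 gave -0.14 ± 0.37 in the db model, -0.996 ± 0.65 in the ob model and 0.38 ± 0.52 between controls (SE; edgeR, lowest adjusted p = 0.664). The receptor with the highest level per length in the wider list was Fzd3, at 9.74 CPM per kb.

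The co-receptors had higher levels and so were measured with more counts. Lrp6 (chr6:134423439-134544212, minus strand) was at 109, 143, 185 and 115 CPM in db/db and at 86.3, 161, 127 and 144 CPM in CT db. In ob/ob it was at 107, 127 and 90.3 CPM, and those of CT ob 70.0, 104 and 77.5 CPM. CT ob held the 2 lowest values of all 14 libraries, yet its range overlapped with that of CT db. Between the lean mice the log2 fold change was -0.63 ± 0.24 (SE; edgeR, adjusted p = 0.109), and without library 1 of CT db it was -0.78 (adjusted p = 0.0422). Lrp5 (chr19:3634821-3736643, minus strand) varied widely within the mutant groups. Its levels were 52.8, 92.5, 117 and 36.2 CPM in db/db against 51.4, 39.4, 75.2 and 61.1 CPM in CT db. The ob/ob libraries had 49.6, 120 and 52.1 CPM against 38.2, 40.4 and 59.4 CPM in CT ob. A single library stood far above the rest of ob/ob, and the groups overlapped in each comparison. In both models Lrp5 had a positive estimate, 0.39 ± 0.32 for db/db and 0.68 ± 0.37 for ob/ob on the log2 scale (SE), and neither passed (edgeR, adjusted p = 0.799 and 0.671). Predicted genes on the opposite strand overlap exons of Lrp5, Lrp6 and Znrf3, as Gm11670 does for Axin2 and Lef1os1 for Lef1, and as the strand setting of the counting was not given in the sources used here, their reads cannot be told apart.

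Sfrp1, a secreted protein that binds WNT ligands (chr8:23901263-23939648, plus strand), was at 6.82, 2.15, 0 and 10.6 CPM in db/db and at 0.56, 2.77, 0.55 and 1.09 CPM in CT db. Those of ob/ob had 5.36, 1.80 and 6.28 CPM, and those of CT ob 1.34, 5.49 and 2.73 CPM. Both mutant groups held higher single values than their controls, and the ranges overlapped in both models. For db/db, Sfrp1 was under the count filter (two-sided exact permutation test, p = 0.257, n = 4 each), and its log2 fold change was 0.49 ± 0.67 in the ob model (SE; edgeR, adjusted p = 0.857). Znrf3, a membrane ubiquitin ligase that removes Frizzled from the cell surface (chr11:5226324-5394939, minus strand), had the smallest spread relative to its mean over the 14 libraries. Its group means were 63.1 ± 17.2 CPM for db/db and 62.9 ± 9.97 for CT db (SD, n = 4 each). They were 58.1 ± 13.3 CPM for ob/ob and 61.6 ± 5.28 for CT ob (SD, n = 3 each). Its 4 log2 fold changes lay between -0.13 and 0.00, with standard errors of 0.20 to 0.22 that exceeded each of them.

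Across libraries, Znrf3 and Lrp5 ran in opposite directions. The 3 libraries with the highest Lrp5, library 2 of ob/ob and libraries 3 and 2 of db/db, had 44.9, 42.4 and 58.1 CPM of Znrf3, and the library with the lowest Lrp5, library 4 of db/db, had the highest Znrf3 at 83.1 CPM. On the log2 scale the correlation was -0.83 over 14 libraries and -0.88 after the group means were removed. Sfrp1 and Znrf3 had a correlation of 0.64, and 0.81 after the group means were removed. These are descriptions of the same 14 libraries, chosen after their values were seen among all pairs of members, and the points share depth and scaling factor.

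Beta-catenin separated the 2 models. Ctnnb1 (chr9:120757422-120789579, plus strand) was at 138, 109, 133 and 131 CPM in db/db and at 149, 134, 148 and 137 CPM in CT db. In the ob/ob group it was at 169, 151 and 192 CPM, and those of CT ob 220, 212 and 154 CPM. The 6 libraries of the ob model, at 151 to 220 CPM, all lay above the 8 of the db model, at 109 to 149 CPM. Such a separation of the models was found for 1.12% of the 12586 genes, and for 1 of the 9 members tested. The gap between the models was small, since library 2 of ob/ob stood at 150.6 and library 1 of CT db at 148.9 CPM. By edgeR, Ctnnb1 was higher in CT ob than in CT db by 0.46 ± 0.15 and higher in ob/ob than in db/db by 0.42 ± 0.15 on the log2 scale (SE), with unadjusted p of 0.00751 and 0.0145 and adjusted p of 0.0715 and 0.434. DESeq2 called the difference of the controls (adjusted p = 0.0351) and not that of the mutants (0.266). The difference between mutants and their own controls passed in neither model, with estimates of -0.16 ± 0.13 for db/db and -0.20 ± 0.20 for ob/ob (SE; edgeR, adjusted p = 0.792 and 0.803). Exons of Ulk4 and 2 further annotated genes overlap those of Ctnnb1.

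**Figure D2:**
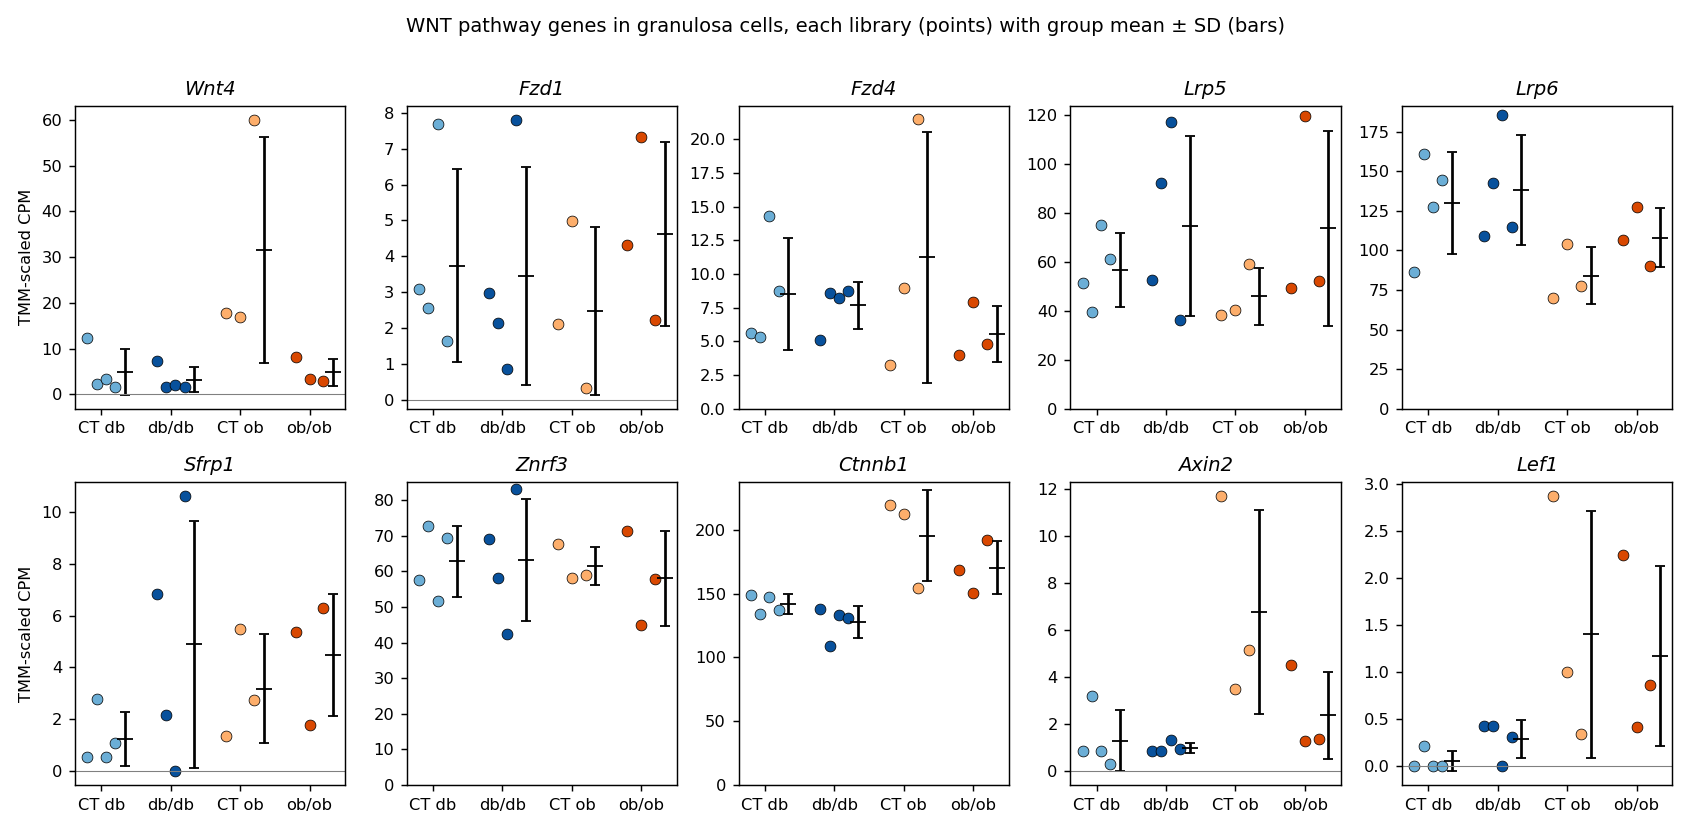
TMM-scaled CPM of each of the 10 genes on a linear axis, 1 point per library in CT db, db/db, CT ob and ob/ob, with bars for the group mean and SD (n = 4 libraries in CT db and db/db, 3 in CT ob and ob/ob). The 3 CT ob libraries sit between 17.0 and 60.1 CPM for Wnt4, above the rest, and the 6 libraries of the ob model sit above the 8 of the db model for Ctnnb1.

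Axin2 and Lef1, which the pathway itself induces, were near the limit of detection in most libraries of the db model. With the count filter and all libraries, Axin2 passed no edgeR test between groups, and Lef1 entered none. Axin2 is a scaffold of the destruction complex (chr11:108811169-108841609, plus strand). It had 2, 2, 3 and 3 counts in db/db and 3, 15, 3 and 1 in CT db. The ob/ob libraries had 26, 9 and 11 counts and those of CT ob 61, 14 and 15, which were 4.49, 1.25 and 1.35 CPM and 11.7, 3.49 and 5.12 CPM. The models overlapped, but CT ob did not overlap with CT db, as for 21.2% of all genes. The highest CT db library was at 3.19 CPM. The log2 fold change between the controls was 2.33 ± 0.68 (SE; 5.03-fold; edgeR, adjusted p = 0.0512), just outside the threshold, and DESeq2 called it (adjusted p = 0.0291). Leaving out library 2 of CT db gave 3.35 on the log2 scale (adjusted p = 0.0424) and leaving out library 1 of CT ob gave 1.66 (0.183). In the ob model Axin2 was lower in the mutants by estimate, at -1.55 ± 0.68 (SE; edgeR, adjusted p = 0.611), with overlapping groups. There and between the controls it passed the count filter only with the CT ob libraries, where it is high. Lef1, a DNA-binding partner of beta-catenin (chr3:130903919-131018005, plus strand), had 1, 1, 0 and 1 counts in db/db against 0, 1, 0 and 0 in CT db. The ob/ob libraries had 13, 3 and 7 counts against 15, 4 and 1 in CT ob. It passed the count filter in no comparison. Summed over libraries and set against the scaled totals, the ratio of CT ob to CT db was 25.6 (95% interval 4.10 to 1061) and that of ob/ob to db/db was 3.69 (1.12 to 19.2). These intervals cover counting error only and not the spread between libraries.

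The highest library of each ob model group for Axin2 and Lef1 was also the one of that group with the most oocyte transcripts. Library 1 of CT ob, with 61 counts of Axin2 and 15 of Lef1, had 974 CPM of the 7 oocyte markers, and library 1 of ob/ob, with 26 and 13 counts, had 622 CPM. Library 3 of CT ob did not follow this, with 5.12 CPM of Axin2, above the 4.49 CPM of library 1 of ob/ob, and the lowest oocyte sum of its group, 58.4 CPM. In CT db, library 2 held the highest Axin2 and the highest oocyte sum, 218 CPM. Over the 14 libraries the correlation of Axin2 with the oocyte sum on the log2 scale was 0.73, and 0.62 after the group means were removed. The oocytes had been stripped from the GCs before lysis, and the part of oocyte RNA in these results was not tested. Wnt4 did not follow that order, since its highest library, library 3 of CT ob, was that with the lowest oocyte sum of its group. Fewer cells of a type and less RNA per cell cannot be told apart in these libraries.

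The start site windows of these 3 genes are shown because they are the members with the largest differences between groups. Each is 300 bases long, from 250 before to 50 after a RefSeq start site on GRCm38.p6, a different build from the positions above, and is written 5′ to 3′ on the strand of the gene, all plus. Capitals mark a match to the TCF and LEF motif, searched on both strands as CTTTG followed directly by an A or a T and then by another A or T. Of the windows of Lef1, only the 1 with a match is shown.
Wnt4, chr4:137277385-137277684: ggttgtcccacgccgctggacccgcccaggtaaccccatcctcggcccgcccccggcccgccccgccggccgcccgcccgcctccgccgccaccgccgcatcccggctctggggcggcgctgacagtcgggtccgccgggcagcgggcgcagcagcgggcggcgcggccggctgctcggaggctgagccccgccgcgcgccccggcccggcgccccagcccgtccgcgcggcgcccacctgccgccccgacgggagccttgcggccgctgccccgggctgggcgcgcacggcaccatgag
Axin2, chr11:108920099-108920398: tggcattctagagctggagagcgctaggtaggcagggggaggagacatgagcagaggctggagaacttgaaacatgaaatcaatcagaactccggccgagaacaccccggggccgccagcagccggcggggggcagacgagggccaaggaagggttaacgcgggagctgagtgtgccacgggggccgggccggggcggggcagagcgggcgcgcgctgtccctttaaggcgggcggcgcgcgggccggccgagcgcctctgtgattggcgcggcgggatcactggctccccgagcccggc
Lef1, a start site inside the gene, chr3:131156044-131156343: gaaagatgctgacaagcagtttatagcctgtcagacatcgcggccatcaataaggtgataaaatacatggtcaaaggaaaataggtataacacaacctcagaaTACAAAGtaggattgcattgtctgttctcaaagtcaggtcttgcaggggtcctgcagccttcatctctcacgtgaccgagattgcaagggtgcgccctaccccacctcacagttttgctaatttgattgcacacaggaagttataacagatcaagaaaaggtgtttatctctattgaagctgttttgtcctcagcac
Windows were at hand for 6 of the 10 members (Wnt4, Fzd1, Fzd4, Ctnnb1, Axin2 and Lef1), 10 windows in all, and 1 of these 10 held the motif, the one of Lef1 shown, on the opposite strand. Of all 32851 mouse windows of this length, 16.9% held a match. The letters G and C made up 84.3% of the Wnt4 window, 70.0% of the Axin2 window and 43.7% of the Lef1 window shown. The other 3 windows of Lef1 held no match and had 67.3%, 67.3% and 51.7% G and C. A match or its absence in so short a window says nothing of whether a factor binds.

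Over the whole set, calls were few. In the db model 5 members passed the count filter (Fzd4, Lrp5, Lrp6, Znrf3 and Ctnnb1) and 0 were called by edgeR, 0 had an unadjusted p under 0.05 (7.59% of all genes), and DESeq2 called 0 (0.389% of all genes). Of the 11317 genes tested, edgeR called 0.00884%, that is 1 gene. In the ob model 9 members were tested, all but Lef1, and edgeR called 0. Wnt4 was the 1 member with an unadjusted p under 0.05 and the 1 that DESeq2 called, against 8.16% and 0.66% of 12425 genes, and edgeR called 0% of them. Between db/db and ob/ob edgeR called 0 of 9 members and 0.0159% of 12586 genes, with 1 member, Ctnnb1, under an unadjusted p of 0.05 (8.18% of genes), and DESeq2 called 0 (0.572% of genes). Ctnnb1 was also the 1 member tested whose mutant groups did not overlap (9.91% of genes). For the difference between the ob and db effects edgeR called 0 of 9 members and 0% of genes, 0 members had an unadjusted p under 0.05, and DESeq2 called 0 (0.501% of genes). Between CT ob and CT db, 3 of the 9 tested members had groups that did not overlap (Wnt4, Ctnnb1 and Axin2), against 21.2% of all genes, and 4 had an unadjusted p under 0.05 (these and Lrp6), against 26.9%. DESeq2 called 3 members, against 12.4% of genes. The share of members that stood out in the comparison of controls is thus to be read beside a large share of all genes.

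**Figure D3:**
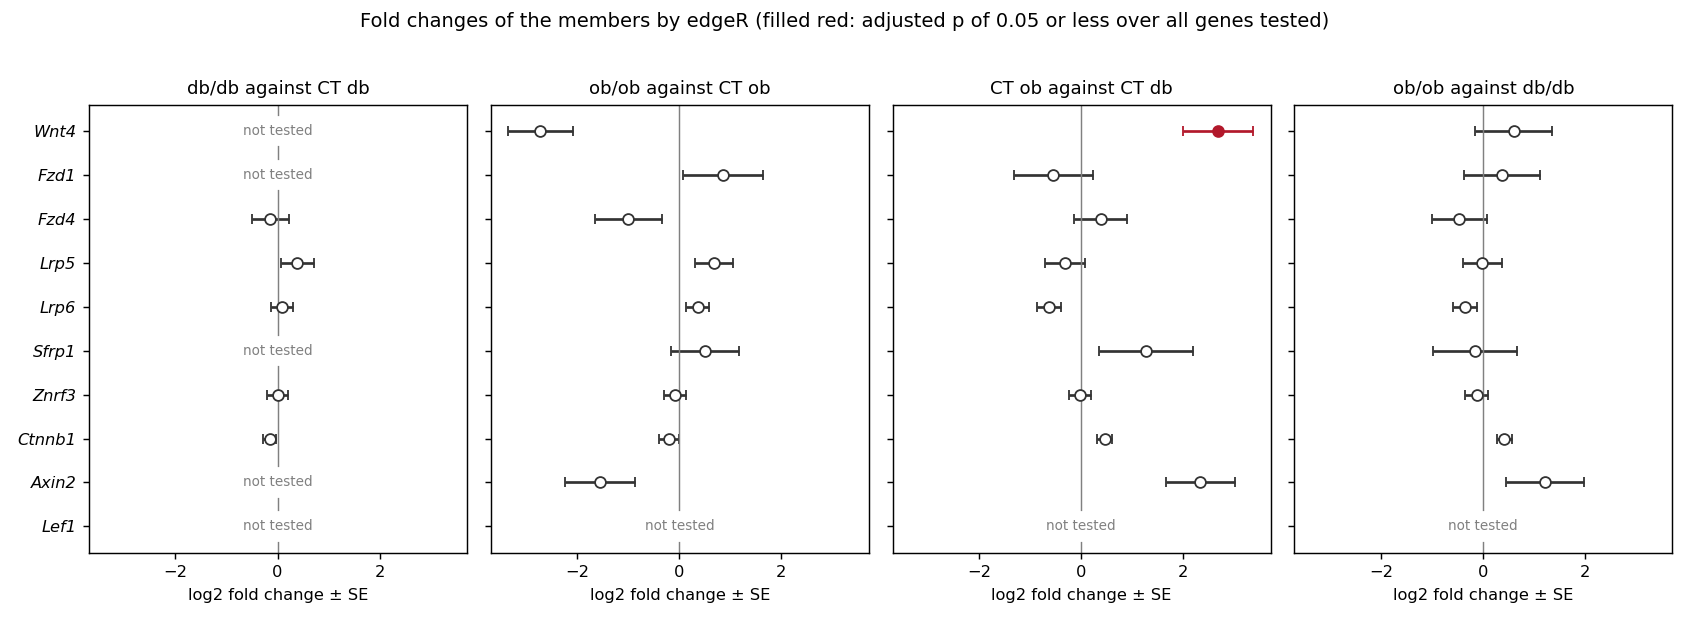
Log2 fold change and SE by edgeR for the 10 genes in the comparisons db/db against CT db, ob/ob against CT ob, CT ob against CT db and ob/ob against db/db; filled red marks an adjusted p of 0.05 or less, and genes below the count filter read "not tested". Wnt4 in CT ob against CT db, at 2.69 ± 0.69, is the 1 filled point.

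The genes whose pattern over the 14 libraries was most like that of Wnt4, by Pearson correlation of log2 CPM among 12586 genes, were Klhl3 (0.95), Elovl2 (0.95), Prcd (0.93), Urod (0.91) and Cep170b (0.91). The nearest to Lrp6 was Sox5 (0.93), to Ctnnb1 Samd10 (0.92), to Lrp5 Fgfrl1 (0.92), to Axin2 Zswim3 (0.91) and to Fzd4 Fuom (0.90). Znrf3 was most like Cables1 (0.88), Sfrp1 most like Mme (0.86) and Fzd1 most like Acad12 (0.81). These are the highest values among many and are given as descriptions.

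The other genes of the pathway were taken from a list of 138 genes, the 10 members included, sorted by role. Of the 83 of these genes tested in the db model, edgeR called 1, Sfrp4, which was lower in db/db and was the 1 gene called among all 11317 (0.00884%). Of the 83, 9.64% had an unadjusted p under 0.05, against 7.59% of all genes. Sfrp4, a secreted Frizzled-related protein known from luteinizing follicles, was at 1.28, 0.43, 1.73 and 2.19 CPM in db/db and at 20.5, 26.6, 32.9 and 26.2 CPM in CT db. The fold change was -4.16 ± 0.34 on the log2 scale (SE; adjusted p = 0.000644). In a fit of all 14 libraries the estimate was -4.16 and the adjusted p 0.747. In the ob model Sfrp4 was at 198 CPM in library 2 of CT ob and at 0.14 to 4.09 CPM in the other 5 libraries. That library also had the highest sum of luteinizing markers, 380 CPM. In the db model these sums overlapped, at 62.3 to 270 CPM in db/db and 74.5 to 226 CPM in CT db. The highest of them was in library 1 of db/db, where Sfrp4 was at 1.28 CPM. The part of luteinizing cells in the Sfrp4 values was not tested. Rnf43, which like Znrf3 removes Frizzled from the cell surface, was at 1.29 to 3.12 CPM in db/db and at 5.76 to 8.73 CPM in CT db, without overlap (4.14% of all genes), and did not pass (log2 fold change -1.66 ± 0.37, SE; edgeR, adjusted p = 0.363). It was also lower in ob/ob, at 3.88 to 8.25 CPM, than in CT ob, at 9.55 to 12.5 CPM, without overlap (15.8% of all genes). The log2 fold change there was -0.94 ± 0.39 (SE; edgeR, adjusted p = 0.611). Between the mutants Rnf43 was higher in ob/ob by 1.46 ± 0.38 (SE; edgeR, adjusted p = 0.322), without overlap (9.91% of all genes). Amer1, a scaffold that works with APC, also did not overlap, at 25.1 to 33.1 CPM in db/db against 18.8 to 22.8 in CT db (log2 fold change 0.50 ± 0.17, SE; adjusted p = 0.557). The median log2 fold change of the wider list was 0.13, beside 0.01 for all genes tested.

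In the ob model edgeR called 0 of the 91 genes tested, while 8 had an unadjusted p under 0.05 with a higher level in ob/ob and 6 with a lower one (15.4%, against 8.16% of all genes). DESeq2 called 3 of them, Wnt4, Tnks and Dkk3, and 0.66% of all genes. The groups of 19 of the 91 did not overlap, against 15.8% of all genes. Tnks, the tankyrase that marks Axin for degradation, was at 536, 598 and 582 CPM in ob/ob against 321, 296 and 337 CPM in CT ob (log2 fold change 0.84 ± 0.17, SE; edgeR, adjusted p = 0.539). Dkk3, of the Dickkopf family of secreted proteins, was at 26.4, 25.5 and 25.0 CPM in ob/ob against 7.48, 11.2 and 13.99 CPM in CT ob (1.24 ± 0.30, SE; adjusted p = 0.539). At the ligand and target steps most estimates were negative. A negative estimate was found for all 4 ligands tested and 9 of the 10 targets tested. The medians were -1.21 and -0.41, beside -0.04 for all genes. Wnt6 (6 to 11 counts in ob/ob, 13 to 17 in CT ob) and Axin2 (9 to 26 and 14 to 61) passed the count filter only with the CT ob libraries, where they are high. Their negative signs were thus favoured by the filter and lend no support here. In the same comparison the median was 0.68 for the 10 granulosa cell markers, -1.68 for the 5 luteinizing markers tested and -1.73 for the 2 endothelial markers tested. It was -0.49 for 7 oocyte markers, -0.50 for 7 of stroma and smooth muscle, -0.60 for 2 immune and -0.08 for 4 theca markers tested. The endothelial markers summed to 8.87 to 31.4 CPM in CT ob against 7.02 to 8.03 CPM in ob/ob. The part of these cell types in the estimates was not tested. Wnt6 was at 1.04 to 1.35 CPM in ob/ob against 3.24 to 5.80 CPM in CT ob, and its ob effect differed from its db effect by -3.25 ± 0.98 on the log2 scale (SE; edgeR, adjusted p = 0.417). Without library 1 of db/db, which had 6.39 CPM of Wnt6 against 0.62 to 1.30 in the rest of its group, that difference was -2.10 (adjusted p = 0.609). Wnt5b, the ligand with the highest level per length, was at 28.6 to 37.0 CPM in ob/ob, overlapping with 33.7 to 38.9 CPM in CT ob.

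Between the lean controls, 6 of the 94 wider genes tested passed, with a higher level in CT ob for 2 and a lower one for 4, against 2.24% and 4.39% of all genes. Beside Wnt4, the gene called higher was Nkd1, a feedback inhibitor that binds Dishevelled and is itself a target of the pathway, at 31.6, 10.47 and 12.3 CPM in CT ob and 5.90, 3.19, 3.84 and 0.55 CPM in CT db (log2 fold change 2.43 ± 0.55, SE; edgeR, adjusted p = 0.0237). Without library 1 of CT ob it was 1.74 (adjusted p = 0.0826), and the call was also lost without library 3 of CT ob (0.0522) or library 2 of CT db (0.0716). The correlation of Nkd1 with the oocyte marker sum was 0.70 over the 14 libraries, and 0.34 after the group means were removed. Nkd1 stood in the same order in the mutants, at 12.4, 5.68 and 7.51 CPM in ob/ob and 0.85, 2.15, 1.73 and 1.56 CPM in db/db (2.41 ± 0.62, SE), where edgeR did not call it (adjusted p = 0.322) and DESeq2 did (0.0436). The genes called lower in CT ob were Tmed5, which carries WNT ligands on their way out of the cell (-1.10 ± 0.19, adjusted p = 0.009), Tspan12, a partner of Fzd4 (-1.19 ± 0.28, adjusted p = 0.0279), Dkk3 (-1.51 ± 0.42, adjusted p = 0.0453) and Csnk1a1, the casein kinase of the destruction complex (-0.54 ± 0.15, adjusted p = 0.0456; all SE, edgeR). None of these 4 overlapped between CT ob and CT db, as was so for 21.2% of all genes. Of the 6 genes called, Tmed5 was the 1 that passed with each library left out in turn. Tspan12, Dkk3 and Csnk1a1 each lost the call without library 2, 3 or 4 of CT db, without library 1 or 3 of CT ob and with library totals, at adjusted p of 0.0518 to 0.124. Dkk3 and Csnk1a1 also lost it without library 2 of CT ob or library 1 or 3 of ob/ob, Dkk3 without library 2 of db/db, and Csnk1a1 without any 1 library of db/db and without the low-count filter. Tmed5 was at 63.1 to 94.3 CPM in CT ob and at 108 to 199 CPM in the other 11 libraries, so that CT ob lay below the other 3 groups. How many of all genes have such a pattern was not counted. The difference between its ob and db effects was 1.02 ± 0.26 (SE), which edgeR did not call (adjusted p = 0.276) and DESeq2 did (0.0376).

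By role, the median estimate between controls lay above that of all genes, 0.06, for the ligands (4 tested, median 1.47), the targets (11 tested, median 0.72, 8 positive) and the secreted inhibitors (6 tested, median 0.74, 4 positive). The same held for the nuclear factors (21 tested, median 0.32, 13 positive), planar polarity (11 tested, median 0.14, 6 positive) and, narrowly, the destruction complex (23 tested, median 0.07, 12 positive). It lay below for WNT secretion (6 tested, median -0.14, 1 positive), the receptors (12 tested, median -0.05, 6 positive) and R-spondins with receptor turnover (7 tested, median -0.03, 3 positive). Over the wider list 52 of 94 estimates were positive, beside 6806 of 12586 for all genes. The 1 gene called on the list of secreted inhibitors, Dkk3, was lower, and its effect on the pathway was not tested. Cell type markers had medians of 2.30 for the 7 oocyte markers, 0.97 for the 2 endothelial markers tested and -0.64 for the granulosa cell markers. The medians were 0.76 for 6 markers of stroma and smooth muscle, 0.61 for 2 immune, 0.12 for 6 luteinizing and -0.19 for 4 theca markers tested. The endothelial sum was 3.09 to 8.24 CPM in CT db, below all libraries of CT ob, and the part of these cell types was not tested. Among the targets Nkd1 was called, and Axin2 (2.33) and Apcdd1 (1.41) had an unadjusted p under 0.05. These 3 made up 27.3% of the targets tested, about the share of all genes with such a p, 26.9%. Tcf7, also a target, was at 60.2 to 128 CPM in CT ob and overlapped with CT db (-0.30). Every role except the ligands had estimates on both sides of 0. CT ob takes part in both the ob and the control comparison, so the opposite signs of the ligand and target medians in these comparisons are not separate observations. Wnt4, Axin2 and Nkd1 belong to these lists and carry part of their medians. Wnt6 and Axin2 passed the count filter between controls only with the CT ob libraries. Their positive signs were thus favoured by the filter and lend no support here.

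**Figure D4:**
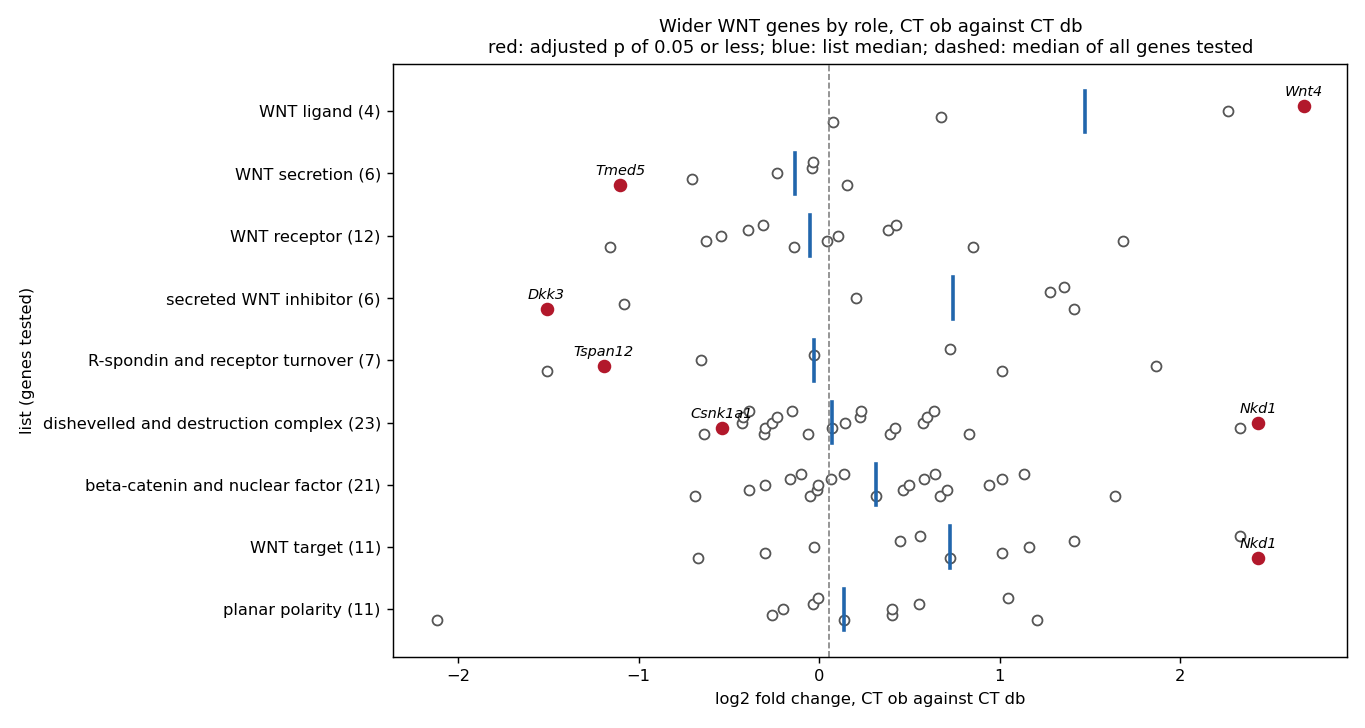
Log2 fold change of CT ob against CT db for each wider WNT gene tested, by role (number of genes tested in brackets), with the list median in blue and the median of all genes, 0.06, as a dashed line; a gene on 2 lists is drawn on both. The 6 genes called, Wnt4 and Nkd1 above and Tmed5, Dkk3, Tspan12 and Csnk1a1 below, are red.

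Between the mutants edgeR called 0 of the 94 wider genes, 6 had an unadjusted p under 0.05 with a higher level in ob/ob and 5 with a lower one (11.7%, against 8.18% of all genes), and DESeq2 called 1, Nkd1 (0.572% of all genes). For the difference between the ob and db effects edgeR called 0, 5.32% had an unadjusted p under 0.05 against 8.11% of all genes, and DESeq2 called 1, Tmed5 (0.501% of all genes). Tle6, which belongs to the corepressor family of the pathway and is also known from the oocyte, was at 38.0 to 99.9 CPM in ob/ob and 2.19 to 20.3 CPM in db/db (log2 fold change 2.74 ± 0.69, SE; edgeR, adjusted p = 0.322). Rspo2, an activating ligand of the pathway named here after its values were seen, was at 7.20 to 38.5 CPM in ob/ob and at most 2.16 CPM in db/db. The correlations of Tle6 and Rspo2 with the oocyte marker sum were 0.92 and 0.97 over the 14 libraries. Lgr4, a receptor of R-spondins and the gene of its list with the highest level per length, was at 20.1 to 65.6 CPM in CT ob and 60.1 to 209 CPM in CT db (-1.51 ± 0.47, SE; edgeR, adjusted p = 0.0626). The remaining genes with the highest level per length of their lists, Tmed10 for secretion, Tcf7 for the nuclear factors, Jun for the targets and Scrib for planar polarity, had adjusted p of 0.441 or more in the comparisons where they were tested.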

How the data were processed

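GCs were punctured from antral follicles, stripped of oocytes and lysed in pools of about 50 cells, and poly-A RNA was amplified before sequencing. The deposited table holds raw read counts per gene that the authors made from trimmed, aligned reads. Their methods name cutadapt, STAR with GRCm39 and featureCounts, while the submitters' processing notes name Trim Galore 0.6.2, HISAT2 2.1.0, FastQC and GRCm38. Of the 55414 identifiers, 98.8% matched the GENCODE annotation of GRCm39, and gene positions are given on that build. Strand and multimapping settings are not given in the sources used here. Columns were assigned to groups by name, so libraries are numbered in column order within a group.

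Counts were filtered with filterByExpr (minimum count 10, minimum total 15), scaled by TMM and tested with edgeR 4.0.16 quasi-likelihood (R 4.3.3), with Benjamini-Hochberg adjustment over all genes tested and calls at 0.05. Each model was fitted on its own, and the controls, the mutants and the difference of effects in 1 fit of 14 libraries. DESeq2 1.42.0 was an alternative, as were RLE scaling, library totals, no low-count filter, a robust fit, a common fit of 14 libraries, each library left out, the longest transcript as gene length and, chosen after seeing the data, a fit without the 18S gene. Log2 CPM for correlations used a prior count of 2. Single genes below the filter were compared by two-sided exact permutation tests of CPM, which cannot go below p = 0.0286 for 4 against 4 libraries, 0.0571 for 3 against 4 and 0.1 for 3 against 3. Intervals of pooled count ratios are 95% and cover counting error only. Simulated 4-fold changes were called in 95.5% of 200 genes for the db model, 87.5% for the ob model and 93% for the controls. Among unchanged genes, 9, 5 and 14 were called. Every simulated gene had the same spread, a coefficient of variation of 0.23, 0.33 and 0.29. The simulation therefore cannot show how often such changes are called in genes with a larger spread, and it does not make absent calls evidence of no change.

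The members and lists were chosen with earlier results of these data known. Text names the 10 members, each wider list gene called in any comparison, the 3 with the smallest p per comparison, the gene with the highest level per length of each list, and the genes most alike to each member; Apcdd1 and Rspo2 were added after their values were seen. Start site windows are from RefSeq.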

Additional observations from a re-analysis of the deposited data

Results flagged for a closer look

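In groups of 4 libraries, a highest or lowest value was looked at again where its gap to the nearest other, divided by the range of the group, exceeded Dixon's 95% critical value. Chance gives this in about 1 of 20 groups, 28 genes were checked, and groups of 3 were not. Wnt4 met this in both groups of the db model. The highest db/db library stood at 7.244 CPM, with the others at 1.561 to 2.164, and the highest CT db library at 12.36 CPM, with the others at 1.636 to 3.294. Both were library 1, which had the highest 18S share of its group, 12.8% and 8.12%. Fzd4 had its lowest db/db value, 5.113 CPM, apart from the others at 8.222 to 8.744, also in library 1. Wnt6 had 6.392 CPM in the same library and 0.6246 to 1.298 CPM in the rest of db/db. That library also had the highest sums of surface epithelium markers, 41.3 CPM, and of theca markers, 767 CPM, and their part in these values was not tested. Scrib had 19.36 CPM in the highest CT db library and 17.25 to 17.42 CPM in the others.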

How the results depend on the processing

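Depth and library number limit these results, since Axin2 and Lef1 lay near 3 counts in the db model and the groups held 3 or 4 libraries. No paired analysis was possible because the columns of the table carry no replicate numbers of the labels. Where a value changed, the cause was not tested.

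Without the low-count filter, edgeR called 1 member in the ob model and 4 between controls, and of the wider list 3 genes in the db model, 7 in the ob model, 21 between controls, 6 between mutants and 3 for the difference of effects. Over all genes, edgeR then called 270 in the db model, 359 in the ob model, 1727 between controls, 535 between mutants and 329 for the difference of effects. DESeq2 called 1 member in the ob model and 3 between controls, and of the wider list 3 in the ob model, 14 between controls, 1 between mutants and 1 for the difference of effects. Of all genes, DESeq2 called 0.66% in the ob model, 12.4% between controls, 0.572% between mutants and 0.501% for the difference of effects. With library totals, 0 members and 2 wider genes were called between controls. In 1 fit of 14 libraries, 0 wider genes were called for the db model. Leaving out 1 library gave 0 to 2 members and 1 to 11 wider genes between controls: 0 members without library 3 or 4 of CT db or library 3 of CT ob, and 11 wider genes without library 1 of CT db. Over all genes, the calls between controls went from 834 to 112 without library 3 of CT ob. They went to 1196, 138, 482 and 201 without library 1, 2, 3 or 4 of CT db. With library totals they were 261, with DESeq2 1563 and without the filter 1727. With the longest transcript as length, the mean level was 31.6 CPM per kb for Ctnnb1, 12.1 for Lrp6, 9.63 for Znrf3 and 0.177 for Lef1.

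Reversed signs were those of log2 fold changes that passed no test. Lrp5 between mutants was 0.0439 without the filter and 0.00503 with library totals. Znrf3 in the db model was -0.0231 without the filter, -0.00673 with RLE and -0.00714 with DESeq2. Ctnnb1 for the difference of effects was 0.0323 without the filter. With 1 library left out, Fzd1 ranged from -1.47 to 0.0629 between controls and -0.141 to 1.19 between mutants. Fzd4 ranged from -0.313 to 0.216 in the db model, -0.493 to 0.832 between controls and -1.29 to 0.0353 for the difference of effects. Lrp5 ranged from -0.554 to 0.293 between mutants and -0.24 to 0.603 for the difference of effects. Lrp6 ranged from -0.0911 to 0.206 in the db model. Sfrp1 ranged from -0.56 to 0.575 between mutants. Znrf3 ranged from -0.158 to 0.154 in the db model, -0.264 to 0.0675 in the ob model, -0.119 to 0.049 between controls, -0.301 to 0.0381 between mutants and -0.269 to 0.0683 for the difference of effects. Ctnnb1 ranged from -0.169 to 0.0491 for the difference of effects. The robust fit and the fit without the 18S gene changed no call or sign among these results.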
